A study of Homo sapiens with 8 samples.

Results

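The BCL2 family cell death regulators examined here are 10 genes, BCL2, BCL2L1, MCL1, BCL2A1, BCL2L11, BMF, BID, BAD, BAX and BBC3. They were chosen by name as pro-death and anti-death members of the family, and all 10 were found among the 33045 gene names of the count table. Messenger RNA was sequenced from KASUMI-1 and THP-1, a pair of established human acute myeloid leukemia lines, after exposure to DDP38003 at 0.5 µM, an inhibitor of the histone demethylase LSD1 (LSD1i), or to vehicle, whose identity the labels do not give. KASUMI-1 carries the RUNX1::RUNX1T1 fusion and was described by the study as sensitive to LSD1 inhibition. THP-1 is a monocytic line with a KMT2A fusion and was described as resistant. The groups were KASUMI-1 with LSD1i for 6 h, KASUMI-1 with LSD1i for 72 h, THP-1 with LSD1i for 24 h and THP-1 with LSD1i for 72 h, each beside vehicle of the same line and time. Each group was 1 library, 8 in all, so a line's 2 pairs of LSD1i and vehicle libraries at different times served as its repeats. Whether the libraries came from separate cultures is not stated. The p-values therefore rest on the spread among these 8 libraries, which may be technical and includes any change of the response with time.

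Proteins of the BCL2 family decide whether the outer mitochondrial membrane stays closed. The guardians BCL2, BCL-XL (gene BCL2L1), MCL1 and BFL-1 (gene BCL2A1) hold the pore-forming effectors BAX and BAK in check. The BH3-only proteins BIM (gene BCL2L11), BMF, BID, BAD and PUMA (gene BBC3) bind the guardians or the effectors and so favour opening of the membrane. Myeloid leukemia cells are known to lean on BCL2 and MCL1 for survival.

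BCL2 and BID are the members whose response differed between the lines, as described below, so the sequences around their start sites are shown. They come from RefSeq on GRCh38.p14 and run from 250 bases before to 20 bases after the first listed start of each gene, BCL2 on the minus strand at chr18:63319750-63320019 and BID on the minus strand at chr22:17774450-17774719. Capitals mark GAGGAAG, the site of the myeloid factor PU.1, and AAATCA, the core site of the LSD1 partner GFI1, searched on both strands. No match of one overlaps a match of the other in the windows of these genes.
BCL2: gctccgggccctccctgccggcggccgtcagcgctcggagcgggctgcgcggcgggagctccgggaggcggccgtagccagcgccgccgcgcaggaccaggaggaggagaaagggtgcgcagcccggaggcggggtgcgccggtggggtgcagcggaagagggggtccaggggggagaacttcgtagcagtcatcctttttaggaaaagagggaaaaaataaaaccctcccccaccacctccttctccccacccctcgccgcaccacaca
BID: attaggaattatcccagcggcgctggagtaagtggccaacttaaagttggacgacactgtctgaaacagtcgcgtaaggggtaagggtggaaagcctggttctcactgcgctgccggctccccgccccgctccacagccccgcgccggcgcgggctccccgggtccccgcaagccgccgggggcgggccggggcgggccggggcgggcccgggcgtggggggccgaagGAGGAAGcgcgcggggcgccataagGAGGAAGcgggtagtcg
The BID stretch holds GAGGAAG at 2 places, starting 22 bases before and 3 bases after the start site, and the BCL2 stretch holds neither motif. RefSeq windows of 250 bases before to 50 bases after a start were found for 9 of the 10 genes, 16 windows in all. GAGGAAG was in 4 of these 16 windows (BCL2A1, BCL2L1 and BID), beside 13.598% of all 35116 windows, and AAATCA was in 2 (BCL2L1 and BID), beside 13.168% of all windows. The 4 and 2 include alternative starts of a gene that share bases, and a match of letters is a description, not a binding site.

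Counted reads per library ranged from 23722972 in KASUMI-1 with vehicle at 72 h to 45970766 in KASUMI-1 with LSD1i at 72 h. Levels are given as CPM, the reads of a gene divided by the TMM-scaled total of its library and set to a common total, and as CPM per kilobase of exon (RPKM) where genes are set side by side. The markers RUNX1T1, KIT and CD34 summed to 1137 to 1689 CPM in KASUMI-1 libraries and 3.42 to 15.8 CPM in THP-1 libraries, and HOXA9 was at 53.2 to 56.3 CPM in THP-1 libraries. MEIS1, also listed as a THP-1 marker, stayed at or under 0.112 CPM in all libraries. EPCAM, listed as an epithelial marker, was at 127 to 166 CPM in KASUMI-1 libraries, while erythroid markers had 0 reads and T cell, B cell, platelet and fibroblast markers summed to at most 2.23 CPM. A list of 12 monocyte and macrophage maturation genes summed to 191.6 and 470.3 CPM in KASUMI-1 with LSD1i at 6 and 72 h, against 60.0 and 64.6 CPM with vehicle. In THP-1 that list summed to 5201 and 11443 CPM with LSD1i at 24 and 72 h, against 1076 and 711 CPM with vehicle, and LYZ gave most of it. Over the libraries of both lines, 1 to 3 of the 12 genes were at 0 reads in each library. Of the 11 tested, 5 rose in KASUMI-1 and 8 in THP-1 with LSD1i, beside 7.02% and 6.51% of all genes. This list was chosen with earlier results of these data known, so a high count is partly built in. FCGR1A, also on the list, was at 78.8 and 65.8 CPM in THP-1 with LSD1i, against 81.3 and 76.8 CPM with vehicle. The part of the list's shift in the changes described below was not tested. In these bulk samples fewer cells with a transcript and less of it per cell cannot be told apart.

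All 10 genes passed the filter on low counts, which kept 16060 gene names, and no exon base of any of them is shared with another gene name of the table. A gene was called changed at an adjusted p under 0.05 in edgeR's quasi-likelihood test fitted over all genes, with a term for each pair. In KASUMI-1, 3 of the 10 were called with LSD1i, beside 12.1% of all genes tested. Of these 1 rose and 2 fell, beside 7.02% and 5.09% of all genes. In THP-1, 2 of the 10 were called, beside 9.36% of all genes. Of these 1 rose and 1 fell, beside 6.51% and 2.85% of all genes. The median fitted log2 ratio of the 10 was -0.21 in KASUMI-1 and 0.01 in THP-1, beside 0.02 and -0.01 over all genes. Of all calls in KASUMI-1, 58.0% were rises, against 49.8% with RLE size factors and 44.5% with DESeq2, so the balance of directions in that line depends on the scaling and the tool.

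**Figure D1:**
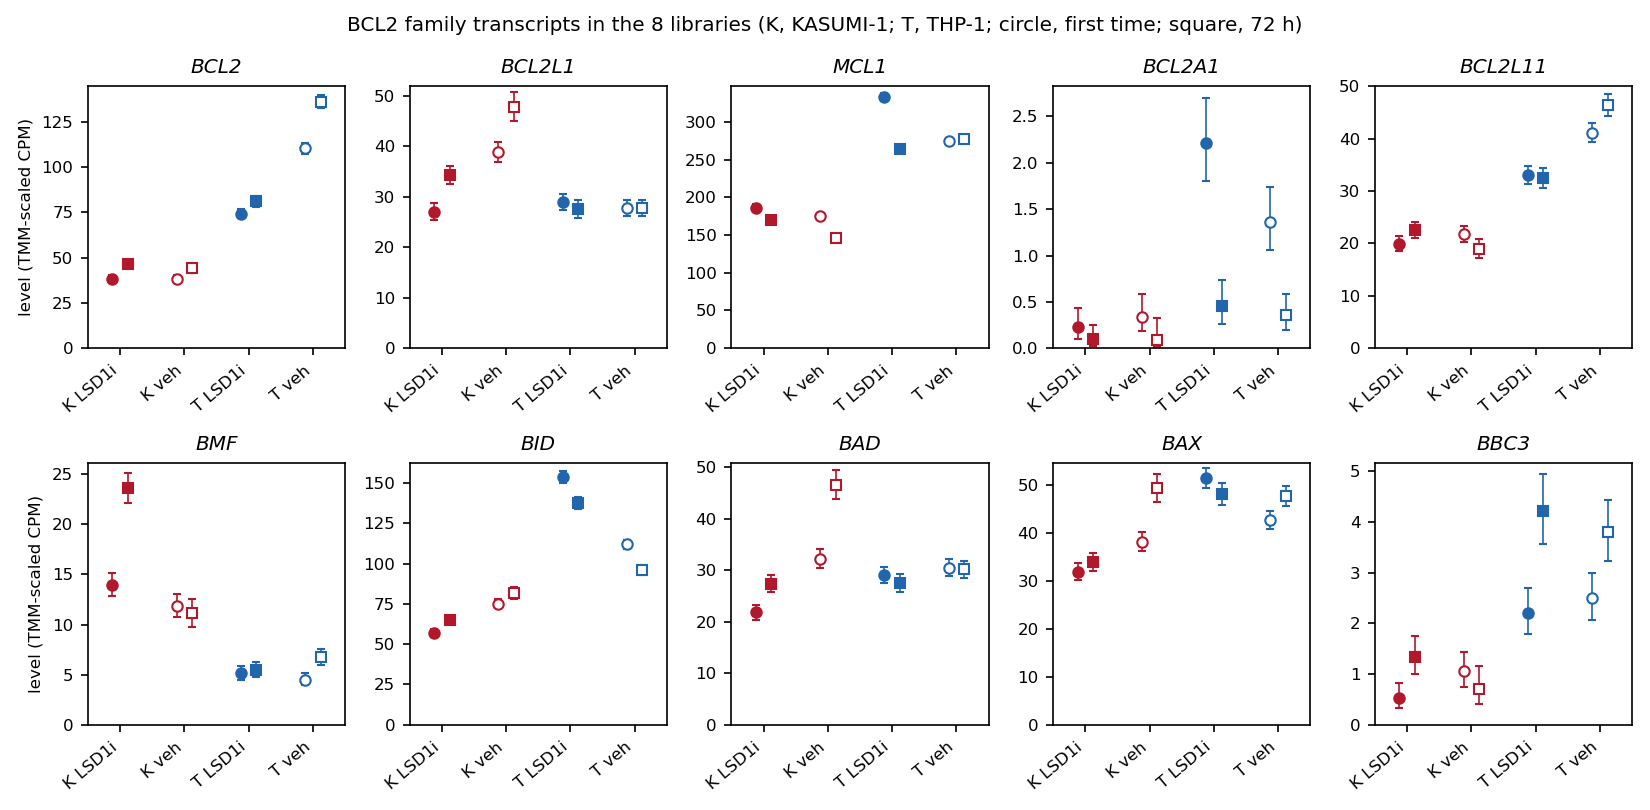
Level of each gene in CPM (TMM-scaled, vertical axis from 0) in the 8 libraries, with LSD1i (filled) left of vehicle (open) for KASUMI-1 (red, K) and THP-1 (blue, T); circles are the first time (6 h in KASUMI-1, 24 h in THP-1), squares 72 h, and bars 95% counting intervals of 1 library. BCL2 lies at 74.3 and 81.1 CPM with LSD1i and at 110.4 and 136 CPM with vehicle in THP-1, and BMF stands at 23.6 CPM in KASUMI-1 with LSD1i at 72 h, above its other 7 libraries.

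Among the guardians, BCL2 fell in THP-1 and BCL2L1 fell in KASUMI-1. BCL2 (chr18:58941559-59138341 on NCBI36, minus strand), the founding anti-death gene and the target of venetoclax, was at 74.3 and 81.1 CPM in THP-1 with LSD1i at 24 and 72 h, against 110.4 and 136 CPM with vehicle. Both LSD1i libraries lay below both vehicle libraries. The fitted log2 ratio was -0.66 ± 0.12 (SE) with an adjusted p of 0.00118, a level of 0.633 times that with vehicle. In KASUMI-1, BCL2 was at 38.5 and 46.5 CPM with LSD1i at 6 and 72 h, against 38.2 and 44.2 CPM with vehicle. Those groups overlap, and the fitted log2 ratio was 0.04 ± 0.12 (adjusted p = 0.877). The THP-1 call for BCL2 was lost without the 72 h pair of THP-1 (adjusted p = 0.135) and without the pair terms (0.0633), with a fitted log2 ratio of -0.59 and -0.67 there.

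BCL2L1 (chr20:29715916-29774324, minus strand) encodes BCL-XL, a guardian that blocks BAX, BAK and BH3-only proteins. It was at 27.1 and 34.3 CPM in KASUMI-1 with LSD1i at 6 and 72 h, against 38.8 and 47.8 CPM with vehicle. Each LSD1i library was below both vehicle libraries, and vehicle itself was higher at 72 h than at 6 h. The fitted log2 ratio was -0.50 ± 0.13 (adjusted p = 0.0198), or 0.708 times the vehicle level. The call was lost without either KASUMI-1 pair (adjusted p = 0.0802 without 6 h and 0.170 without 72 h) and without the pair terms (0.205), while the log2 ratio stayed between -0.53 and -0.47 over the 8 alternatives. In THP-1, BCL2L1 held 29.0 and 27.6 CPM with LSD1i, against 27.8 and 27.7 CPM with vehicle, a fitted log2 ratio of 0.03 ± 0.13 (adjusted p = 0.952).

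MCL1 (chr1:148813661-148818760, minus strand), a guardian with a short-lived protein, was at 186 and 169 CPM in KASUMI-1 with LSD1i at 6 and 72 h, against 176 and 146 CPM with vehicle. In THP-1 it was at 332 and 264 CPM with LSD1i at 24 and 72 h, against 274 and 278 CPM with vehicle. The groups overlapped in both lines, and the fitted log2 ratios of 0.15 ± 0.13 in KASUMI-1 (adjusted p = 0.514) and 0.10 ± 0.13 in THP-1 (adjusted p = 0.758) did not pass the test. BCL2A1 (chr15:78040290-78050698, minus strand), an NF-kB target that encodes the guardian BFL-1, was close to the detection limit in KASUMI-1. It had 9 and 4 reads there with LSD1i at 6 and 72 h, against 13 and 2 reads with vehicle. In THP-1 it had 99 and 16 reads with LSD1i at 24 and 72 h, against 65 and 15 reads with vehicle, and it was lower at 72 h than at 24 h with either agent. Its fitted log2 ratios were -0.40 ± 0.59 in KASUMI-1 and 0.59 ± 0.33 in THP-1, neither of them called (adjusted p = 0.722 and 0.352).

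Set side by side per length, MCL1 gave most guardian mRNA in every library. It made up 61.4 to 78.6% of the summed RPKM of the 4 guardians. BCL2 gave 9.42 and 12.5% of that sum in THP-1 with LSD1i at 24 and 72 h, against 15.6 and 18.6% with vehicle. BCL2L1 gave 15.6 and 19.97% in KASUMI-1 with LSD1i at 6 and 72 h, against 21.8 and 28.5% with vehicle. These shares are lower with LSD1i at both times in each case, with no test of the share itself. The 4 guardians together held 46.9 and 42.8% of the summed RPKM of all 10 genes in KASUMI-1 with LSD1i, against 41.4 and 34.9% with vehicle. In THP-1 that share was 45.2 and 42.2% with LSD1i, against 46.7 and 47.5% with vehicle, so it was higher with LSD1i in both KASUMI-1 pairs and lower in both THP-1 pairs.

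**Figure D2:**
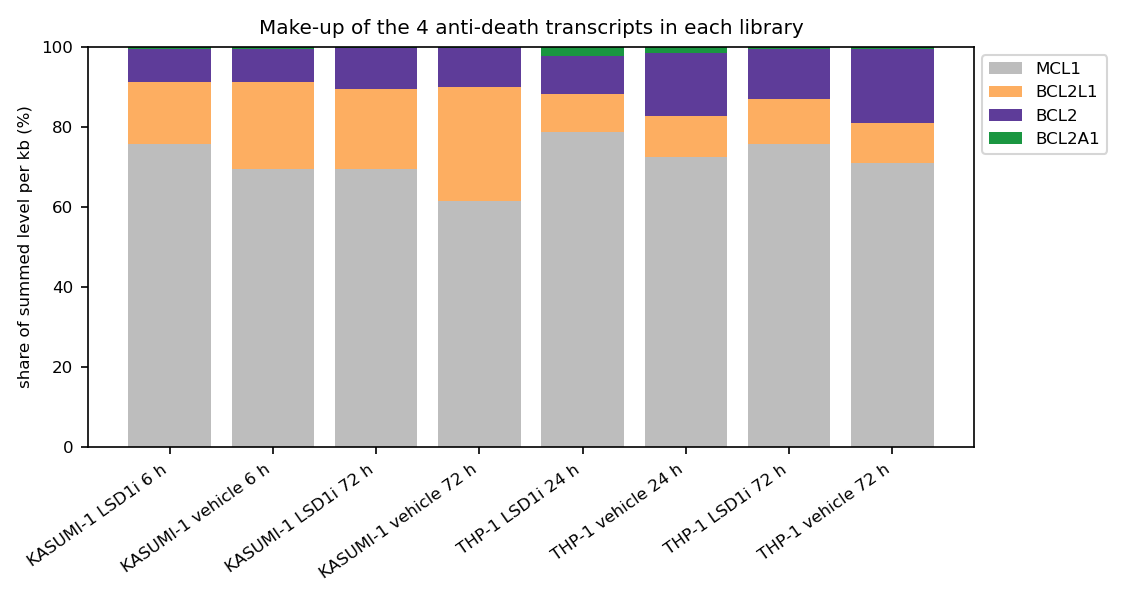
Share of the summed level per kilobase (RPKM, in %) that MCL1 (grey), BCL2L1 (orange), BCL2 (purple) and BCL2A1 (green) contribute in each of the 8 libraries, LSD1i left of its vehicle. MCL1 takes 61.4 to 78.6%, the orange band is narrower with LSD1i in both KASUMI-1 pairs, and the purple band is narrower with LSD1i in both THP-1 pairs.

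Among the BH3-only genes, BAD fell and BMF rose in KASUMI-1, and BID rose in THP-1. BAD (chr11:63793878-63808740, minus strand), whose protein is held inactive by phosphorylation under growth factor signals, was at 21.8 and 27.4 CPM in KASUMI-1 with LSD1i at 6 and 72 h, against 32.2 and 46.6 CPM with vehicle. Both LSD1i libraries lay below both vehicle libraries. The fitted log2 ratio was -0.66 ± 0.13 (adjusted p = 0.00440), or 0.631 times the vehicle level. Between the vehicle libraries of KASUMI-1 themselves, BAD was 0.53 higher on the log2 scale at 72 h than at 6 h (95% counting interval 0.41 to 0.65). The call was lost without the 72 h pair of KASUMI-1 (adjusted p = 0.131) and without the pair terms (0.149). In THP-1, BAD was at 29.0 and 27.5 CPM with LSD1i, against 30.5 and 30.2 CPM with vehicle, a fitted log2 ratio of -0.10 ± 0.13 (adjusted p = 0.760).

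BMF (chr15:38167386-38188367, minus strand), a BH3-only gene whose protein binds the dynein light chain, was at 13.97 and 23.6 CPM in KASUMI-1 with LSD1i at 6 and 72 h, against 11.9 and 11.1 CPM with vehicle. The 72 h LSD1i library stood apart from the other 3. The fitted log2 ratio was 0.65 ± 0.19 (adjusted p = 0.0374), or 1.57 times vehicle. That value averages a log2 ratio of 0.23 at 6 h (95% counting interval 0.05 to 0.42) and 1.08 at 72 h (0.88 to 1.29). Without the 72 h pair of KASUMI-1 it was 0.23, where the call was lost, and without the 6 h pair it was 1.09. Each of these fits has 1 LSD1i and 1 vehicle library of KASUMI-1 and so measures no spread in that line. The call was also lost with DESeq2 (adjusted p = 0.0974), without either THP-1 pair (0.0628 and 0.0569) and without the pair terms (0.245). In THP-1, BMF was at 5.12 and 5.48 CPM with LSD1i at 24 and 72 h, against 4.50 and 6.75 CPM with vehicle, a fitted log2 ratio of -0.06 ± 0.21 (adjusted p = 0.931).

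BID (chr22:16596908-16637263, minus strand) links death receptors to mitochondria once caspase-8 has cut its protein. It was at 154 and 137 CPM in THP-1 with LSD1i at 24 and 72 h, against 112 and 95.8 CPM with vehicle. In KASUMI-1 it was at 57.0 and 64.7 CPM with LSD1i at 6 and 72 h, against 75.1 and 81.5 CPM with vehicle. The libraries of the agents did not overlap in either line, with LSD1i higher in THP-1 and lower in KASUMI-1. BID rose in THP-1, with a fitted log2 ratio of 0.49 ± 0.12 (adjusted p = 0.0110), or 1.405 times vehicle. In KASUMI-1 its fitted log2 ratio of -0.37 ± 0.12 did not pass (adjusted p = 0.0548), but passed with RLE size factors (0.0386) and with DESeq2 (0.0303). The THP-1 call was lost without either THP-1 pair (adjusted p = 0.183 without 24 h and 0.361 without 72 h) and without the pair terms (0.140), while its log2 ratio stayed between 0.45 and 0.50.

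BCL2L11 (chr2:111594962-111642493, plus strand) encodes BIM, a FOXO3 target that binds all guardians. It was at 33.1 and 32.5 CPM in THP-1 with LSD1i at 24 and 72 h, against 41.2 and 46.4 CPM with vehicle. Both LSD1i libraries were below both vehicle libraries, yet the fitted log2 ratio of -0.41 ± 0.14 did not pass (adjusted p = 0.0756), and it passed when either KASUMI-1 pair was left out of the fit (0.0225 without 6 h and 0.0229 without 72 h). In KASUMI-1, BCL2L11 was at 19.995 and 22.5 CPM with LSD1i, against 21.8 and 19.0 CPM with vehicle, with overlapping groups and a fitted log2 ratio of 0.06 ± 0.14 (adjusted p = 0.853). BBC3 (chr19:52415924-52427699, minus strand), which encodes PUMA, was scarce. It had 21 and 55 reads in KASUMI-1 with LSD1i at 6 and 72 h, against 40 and 16 reads with vehicle. Its log2 ratio was -0.91 at 6 h (95% counting interval -1.81 to -0.18) and 0.87 at 72 h (0.09 to 1.81), opposite in direction, and the fitted value over both was -0.05 ± 0.38 (adjusted p = 0.969). In THP-1, BBC3 had 99 and 149 reads with LSD1i at 24 and 72 h, against 119 and 160 reads with vehicle, a fitted log2 ratio of -0.01 ± 0.28 (adjusted p = 0.998).

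The effector BAX (chr19:54149929-54156864, plus strand), which forms the pore in the outer mitochondrial membrane, was at 31.8 and 33.9 CPM in KASUMI-1 with LSD1i at 6 and 72 h, against 38.2 and 49.3 CPM with vehicle. In THP-1 it was at 51.4 and 48.1 CPM with LSD1i at 24 and 72 h, against 42.7 and 47.7 CPM with vehicle. The libraries of the agents did not overlap in either line, although in THP-1 they came within 1 CPM of each other at 72 h. Neither fitted log2 ratio passed, at -0.40 ± 0.13 in KASUMI-1 (adjusted p = 0.0597) and 0.14 ± 0.13 in THP-1 (adjusted p = 0.648). The KASUMI-1 value passed with RLE size factors (adjusted p = 0.0442). Without the 6 h pair of KASUMI-1 it was -0.54, from 1 LSD1i and 1 vehicle library of that line.

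**Figure D3:**
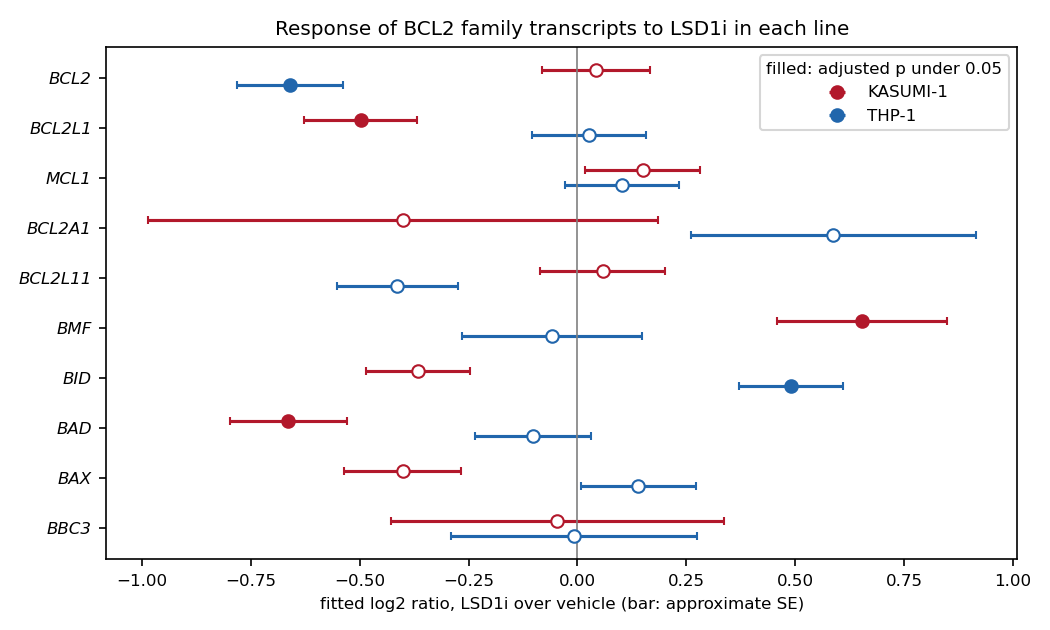
Fitted log2 ratio of LSD1i over vehicle for the 10 genes in KASUMI-1 (red) and THP-1 (blue); bars are approximate standard errors and filled points have an adjusted p under 0.05. BAD at -0.66, BCL2L1 at -0.50 and BMF at 0.65 are filled in KASUMI-1, and BCL2 at -0.66 and BID at 0.49 in THP-1.

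The difference between the lines was tested as a contrast of their LSD1i responses, KASUMI-1 minus THP-1. The early times of the lines differ, 6 h in KASUMI-1 and 24 h in THP-1, so line and early time cannot be told apart in it. Of the 10 genes 2 were called, BCL2 and BID, beside 5.69% of all genes tested, 1 in the positive direction (2.62% of all genes) and 1 in the negative (3.07%). The median difference of the 10 was -0.28, beside 0.02 over all genes. Of all calls of this kind 46.1% were positive, against 40.9% with RLE size factors and 33.0% with DESeq2. For BCL2 the response was 0.70 ± 0.17 more positive on the log2 scale in KASUMI-1 than in THP-1 (adjusted p = 0.0242). For BID it was -0.86 ± 0.17, lower in KASUMI-1 than in THP-1 (adjusted p = 0.00665). The BCL2 difference was lost without the 72 h pair of KASUMI-1 (adjusted p = 0.0559), without the THP-1 pairs (0.121 without 24 h and 0.219 without 72 h) and without the pair terms (0.297). The BID difference was lost without the THP-1 pairs (adjusted p = 0.0870 without 24 h and 0.104 without 72 h) and without the pair terms (0.181).

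The other differences did not pass the test. BMF responded 0.71 ± 0.28 more positively in KASUMI-1 than in THP-1 (adjusted p = 0.152). Without the 6 h pair of KASUMI-1 that difference was 1.15, with 1 pair left in that line and so no measure of its spread. BAD, BAX and BCL2L1 had differences of -0.56 ± 0.19, -0.54 ± 0.19 and -0.52 ± 0.18 (adjusted p = 0.0895, 0.101 and 0.104), all lower in KASUMI-1. Without the 6 h pair of KASUMI-1 the difference for BAX was -0.68, again with 1 pair left in that line. The fall of BCL2L1 and BAD in KASUMI-1 and its lack of a call in THP-1 is therefore not shown to differ between the lines. The difference for BCL2L11 was 0.47 ± 0.20 (adjusted p = 0.176), and those for BCL2A1, MCL1 and BBC3 were -0.99 ± 0.67, 0.05 ± 0.19 and -0.04 ± 0.47.

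Within single pairs each ratio compares 1 library with 1 other, and its 95% interval covers counting error only. In KASUMI-1 at 6 h the interval lay above equality for 2 of the 10 genes and below it for 5, beside 21.8% above and 25.6% below among all genes (47.4% in all). In KASUMI-1 at 72 h it lay above for 4 and below for 4, beside 29.9% and 24.3% of all genes (54.2%). In THP-1 at 24 h it lay above for 4 and below for 2, beside 26.2% and 21.6% of all genes (47.8%). In THP-1 at 72 h it lay above for 1 and below for 5, beside 26.7% and 25.9% of all genes (52.6%). Shares of this size across all genes mean that these intervals do not mark a gene as changed by the inhibitor. All 5 called members, BCL2, BID, BCL2L1, BAD and BMF, had ratios of 1 direction, with intervals apart from equality, at both times of the line in which they were called. Their calls come from a fit over these same pairs, so that agreement is not separate support. BCL2 had log2 ratios of -0.57 (interval -0.64 to -0.51) at 24 h and -0.75 (-0.81 to -0.68) at 72 h in THP-1. BID had 0.46 (0.41 to 0.51) and 0.52 (0.46 to 0.58) at those times.

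BCL2L1 had log2 ratios of -0.52 (-0.63 to -0.40) at 6 h and -0.48 (-0.59 to -0.36) at 72 h in KASUMI-1. BAD had -0.56 (-0.69 to -0.43) and -0.77 (-0.89 to -0.64) there. Opposite ratios at the times of a line, with at least 1 of the intervals apart from equality, were seen for 4 genes. MCL1 in THP-1 was 0.28 (0.24 to 0.31) at 24 h and -0.07 (-0.11 to -0.04) at 72 h. BMF in THP-1 was 0.18 (-0.09 to 0.46) at 24 h and -0.30 (-0.57 to -0.03) at 72 h. BCL2L11 in KASUMI-1 was -0.12 (-0.26 to 0.02) at 6 h and 0.24 (0.08 to 0.41) at 72 h, and BBC3 in KASUMI-1 is given above.

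**Figure D4:**
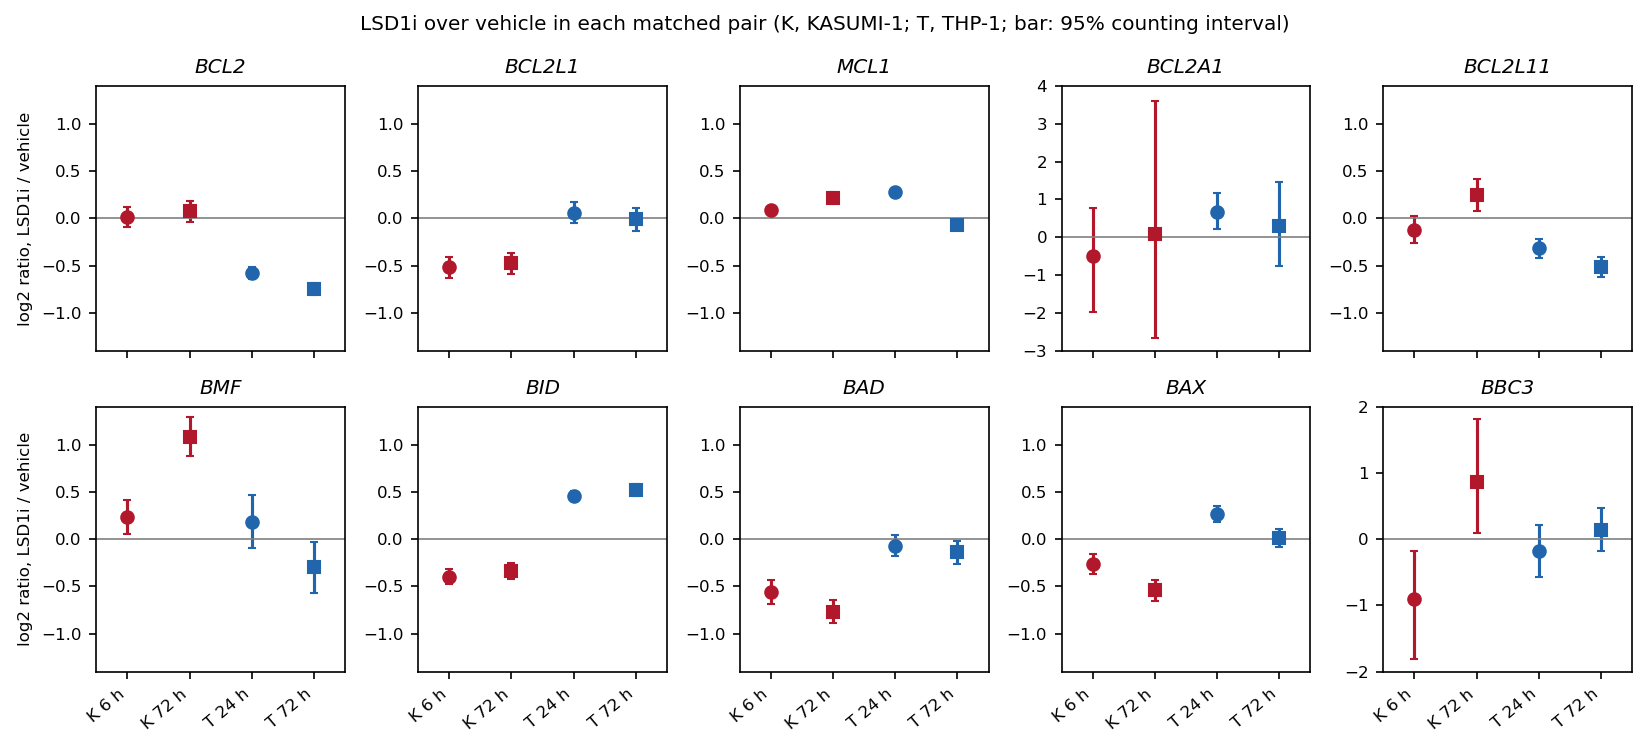
Log2 ratio of LSD1i over vehicle in each matched pair for the 10 genes (vertical axes from -1.4 to 1.4, wider for BCL2A1 and BBC3); circles are 6 h in KASUMI-1 (red) and 24 h in THP-1 (blue), squares 72 h, and bars 95% counting intervals. BID lies at -0.40 and -0.33 in KASUMI-1 and at 0.46 and 0.52 in THP-1, and BMF at 0.23 and 1.08 in KASUMI-1.

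Levels also moved with time in vehicle cultures, where the libraries compared are 1 against 1. In KASUMI-1 vehicle at 72 h, against 6 h, 5 of the 10 genes had an interval above equality and 2 below, beside 23.1% and 25.0% of all genes (48.1% in all). BAD (0.53), BAX (0.37, interval 0.26 to 0.48) and BCL2L1 (0.30, 0.19 to 0.41) had the largest positive log2 ratios there, and MCL1 was at -0.27 (-0.33 to -0.21). These 3 with positive ratios were also lower with LSD1i than with vehicle at both times. So was BID, at 0.12 (0.03 to 0.20) with time in vehicle, while BCL2, at 0.21, was not. The 72 h vehicle library enters both the ratio over time and the 72 h LSD1i ratio, so their signs are not independent. The 72 h vehicle library of KASUMI-1 has the fewest counted reads of the 8, and its part in these values was not tested beyond leaving out its pair. In THP-1 vehicle at 72 h, against 24 h, 5 genes again had an interval above equality and 2 below, beside 25.2% and 23.4% of all genes (48.6%). BCL2A1 was at -1.80 there (-2.86 to -1.11, on 15 and 65 reads), BBC3 at 0.59 (0.25 to 0.96), BMF at 0.58 (0.32 to 0.85) and BCL2 at 0.30 (0.25 to 0.36).

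Levels of these mRNAs without inhibitor were also compared between the lines. The early vehicle libraries are from 6 h in KASUMI-1 and 24 h in THP-1, so line and early time cannot be told apart here. A separate edgeR fit on the 4 vehicle libraries called 7 of the 10 genes, beside 56.5% of the 15456 genes tested, so that this count is near the background. Of the 10 genes, 2 were higher in KASUMI-1 than in THP-1 (26.4% of all genes tested) and 5 were lower (30.1%). BCL2 was at 38.2 and 44.2 CPM in KASUMI-1 vehicle libraries, against 110.4 and 136 CPM in those of THP-1, a log2 ratio of -1.59 ± 0.18 (adjusted p = 3.22e-05). BCL2L11 was lower by a log2 ratio of -1.11 ± 0.18 (adjusted p = 0.000382), MCL1 by -0.78 ± 0.16 (0.00212) and BBC3 by -1.80 ± 0.34 (0.00121). These 4 kept their calls under all 7 alternatives. BCL2A1 was lower by -1.86 ± 0.71 (adjusted p = 0.0454), a call lost with DESeq2 (0.0752) and without the 24 h vehicle library of THP-1, where its log2 ratio was -0.60 (0.584).

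BCL2L1 and BMF were the members higher in KASUMI-1 than in THP-1 without inhibitor. BCL2L1 was higher by a log2 ratio of 0.63 ± 0.18 (adjusted p = 0.0113), a call lost without either THP-1 vehicle library (0.0653 without 24 h and 0.0705 without 72 h). BMF, at 11.9 and 11.1 CPM in KASUMI-1 and 4.50 and 6.75 CPM in THP-1 vehicle libraries, was higher by 1.03 ± 0.25 (adjusted p = 0.00471), a call lost without the 24 h vehicle library of THP-1 (0.0701). BID, BAD and BAX did not pass, with log2 ratios of -0.41 ± 0.17 (adjusted p = 0.0575), 0.37 ± 0.20 (0.145) and -0.05 ± 0.18 (0.820). BID passed with RLE size factors (0.0497), without the count filter (0.0304) and with DESeq2 (0.0420). Without the 6 h vehicle library of KASUMI-1 the log2 ratio of BAD was 0.62, from 1 library of that line. The fall of BCL2 in THP-1 with LSD1i left it above the KASUMI-1 levels, at 9.95 and 10.9 RPKM in THP-1 with LSD1i, against 5.11 and 5.92 RPKM in KASUMI-1 with vehicle.

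In order of mean level per length, MCL1 led in both lines. It was at 40.2 ± 5.24 RPKM in KASUMI-1 and 69.0 ± 0.630 RPKM in THP-1 vehicle libraries (mean ± SD of 2 times, which includes change with time). In KASUMI-1 it was followed by BAX (34.9 ± 6.29), BAD (29.6 ± 7.64) and BID (29.0 ± 1.68 RPKM), and the ranges of MCL1, BAX, BAD and BID overlap each with the next. BCL2L1 (15.3 ± 2.25), BCL2 (5.52 ± 0.572), BCL2L11 (3.72 ± 0.355), BMF (2.41 ± 0.109), BBC3 (0.457 ± 0.124) and BCL2A1 (0.229 ± 0.190 RPKM) came next in that line, each apart from its neighbours, although BBC3 and BCL2A1 nearly touch. In THP-1 the order after MCL1 was BID (38.5 ± 4.19) and BAX (36.1 ± 2.86 RPKM), which overlap, then BAD (22.8 ± 0.166), BCL2 (16.5 ± 2.43), BCL2L1 (9.84 ± 0.00598) and BCL2L11 (7.99 ± 0.672 RPKM), which do not. At the low end of THP-1, BBC3 (1.64 ± 0.477), BMF (1.18 ± 0.333) and BCL2A1 (0.916 ± 0.760 RPKM) overlap each with the next. BCL2 thus stood above BCL2L1 per length in THP-1 and below it in KASUMI-1. The gap in KASUMI-1 rests largely on the exon lengths used, 7461 bases for BCL2 and 2821 for BCL2L1. Before division by length, BCL2 was at 38.2 and 44.2 CPM there and BCL2L1 at 38.8 and 47.8 CPM. These lengths cover all annotated exon bases of a gene, and which of its transcripts were present was not tested.

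**Figure D5:**
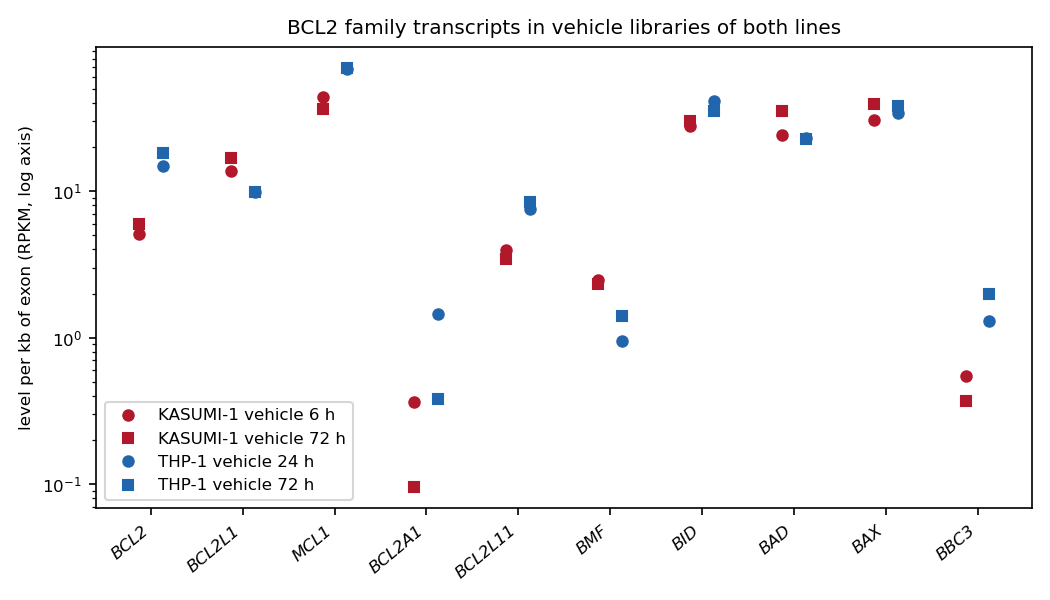
Level per kilobase of exon (RPKM, logarithmic axis) of the 10 genes in the vehicle libraries of KASUMI-1 (red) and THP-1 (blue); circles are 6 h and 24 h, squares 72 h. MCL1 is highest in THP-1 at both times and in KASUMI-1 at 6 h. In KASUMI-1 at 72 h BAX (39.4 RPKM) lies above MCL1 (36.5 RPKM). BCL2 is at 5.11 and 5.92 RPKM in KASUMI-1 and 14.8 and 18.2 RPKM in THP-1.

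With LSD1i the order of the means over both times in KASUMI-1 changed for BMF and BID. Within a time, these changes were seen at 72 h only. At 6 h BID was above BAD, and BMF below BCL2L11, with LSD1i and with vehicle. BMF stood at 3.93 ± 1.42 RPKM, beside 3.88 ± 0.326 RPKM for BCL2L11, with overlapping ranges. BID, at 22.5 ± 2.01 RPKM there, stood above BAD, at 18.5 ± 2.94 RPKM, with ranges apart, while with vehicle BAD was above BID with overlapping ranges. BAX was at 26.2 ± 1.16 RPKM there and MCL1 at 44.5 ± 2.97 RPKM, apart from each other with LSD1i but not with vehicle. In THP-1 with LSD1i, BCL2 was at 10.4 ± 0.645 RPKM and BCL2L1 at 10.02 ± 0.351 RPKM, and their ranges overlap.

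For the member with the largest fitted value in each line, the genes with the most similar set of 4 pair ratios were sought among 9493 genes, those whose average log2 CPM reached 1. The measure was the root mean square difference of the log2 ratios over the 4 pairs. For BAD these were VDR (0.0419), LAGE3 (0.0440), DGAT2 (0.0608), STUB1 (0.0690) and TUSC2 (0.0737). VDR, the vitamin D receptor, had log2 ratios of -0.61 and -0.82 in KASUMI-1 and -0.08 and -0.17 in THP-1. For BCL2 they were CCDC144NL (0.0385), MYH10 (0.0641), MAN2A2 (0.0726), CHST12 (0.0842) and PRDM8 (0.0956). The log2 ratios of 0.00 for CCDC144NL in KASUMI-1 rest on 0 reads there, so its likeness lies in the THP-1 pairs alone, at -0.57 and -0.73. Over so few pairs many genes lie close to any pattern.

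Of 14 other BCL2 family genes 11 were tested. The counts of this and the lists that follow stand beside calls for 12.1% of all genes in KASUMI-1 and 9.36% in THP-1. In KASUMI-1 with LSD1i 1 rose and 3 fell, with a median log2 ratio of -0.08, and in THP-1 1 rose, with a median of 0.06. BNIP3L, a mitophagy receptor, rose in both lines, by 0.95 ± 0.15 in KASUMI-1 (adjusted p = 0.000850) and 0.61 ± 0.15 in THP-1 (0.0129). In KASUMI-1 its relative BNIP3 (-0.68 ± 0.14, adjusted p = 0.00513), BCL2L12 (-0.59 ± 0.16, 0.0223) and BAK1 (-0.52 ± 0.12, 0.0121) fell. BAK1, the pore-forming partner of BAX, was at 26.9 and 26.8 CPM in KASUMI-1 with LSD1i, against 37.1 and 40.1 CPM with vehicle. In THP-1 it was at 97.6 and 90.8 CPM with LSD1i, against 75.7 and 72.8 CPM with vehicle. Its response was lower in KASUMI-1 than in THP-1 by a log2 difference of -0.87 ± 0.17 (adjusted p = 0.00750), a difference of the same direction as that of BID.

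Upstream of BID, 11 genes of death receptors, their ligands and adaptors were tested. Of these 3 rose in KASUMI-1 and 4 in THP-1, with medians of 0.05 and 0.11. Called in both lines were 1 receptor, 1 decoy receptor and 1 ligand. TNFRSF10B, the TRAIL receptor DR5, was at 44.3 and 66.9 CPM in KASUMI-1 with LSD1i, against 21.5 and 27.0 CPM with vehicle, a log2 ratio of 1.18 ± 0.14 (adjusted p = 4.87e-05). In THP-1 it was at 39.7 and 43.4 CPM with LSD1i, against 14.2 and 18.0 CPM with vehicle, a log2 ratio of 1.38 ± 0.14 (adjusted p = 1.89e-06). The decoy receptor gene TNFRSF10D rose by 1.18 ± 0.15 in KASUMI-1 (adjusted p = 9.30e-05) and 1.89 ± 0.16 in THP-1 (2.12e-07), and TNFSF10, the gene of the ligand TRAIL, by 0.84 ± 0.20 (0.0107) and 0.87 ± 0.18 (0.00289). TNFRSF10A rose in THP-1, by 0.77 ± 0.18 (adjusted p = 0.00692). The calls of TNFRSF10B and TNFRSF10D held under all 8 alternatives in both lines.

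Downstream of mitochondria, all 15 caspase and apoptosome genes were tested. APAF1, the scaffold of the apoptosome (0.55 ± 0.12, adjusted p = 0.00924), and CASP8 (0.46 ± 0.13, 0.0273) rose in KASUMI-1, and ENDOG, a mitochondrial nuclease (-0.74 ± 0.19, 0.0188), fell. In THP-1 CASP6, an executioner caspase, rose (0.62 ± 0.15, 0.0140). The list medians were 0.08 and 0.10. Of 6 inhibitor of apoptosis genes, BIRC2 (0.48 ± 0.13, 0.0272) and XIAP (0.42 ± 0.13, 0.0419), which restrain caspases, rose in KASUMI-1, and BIRC5, the mitotic survivin gene, fell (-0.49 ± 0.13, 0.0214). The median of that list was 0.45 in KASUMI-1 and 0.19 in THP-1, where NAIP rose (1.34 ± 0.21, 0.000342). NAIP lies among near-identical copies, so its count is uncertain.

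With LSD1i, 5 of 11 stress response genes rose in KASUMI-1 and 1 fell, with a median of 0.51, and 1 rose in THP-1, with a median of 0.21. TP53INP1 (1.67 ± 0.24, adjusted p = 0.000316), RRM2B (0.88 ± 0.15, 0.00145) and SESN1 (0.78 ± 0.16, 0.00598) rose in KASUMI-1 beside TNFRSF10B, which is also on the death receptor list, and TP53I3. AEN, an exonuclease gene, fell there (-0.61 ± 0.13, 0.00486), and CDKN1A, the gene of a cell cycle inhibitor, was at -0.62 ± 0.23 without passing (0.0903). TP53I3, AEN and CDKN1A are named here after their values were seen. Among 27 known regulators of the members, 1 rose and 2 fell in KASUMI-1 and 2 rose in THP-1, with medians of -0.01 and -0.02. These counts, 3 and 2 of 27, are no higher than the shares over all genes. FOXO3, which activates BCL2L11 and BBC3, rose in KASUMI-1 (0.58 ± 0.15, 0.0172), while MYC (-0.42 ± 0.13, 0.0428) and AKT1, a kinase that phosphorylates BAD (-0.40 ± 0.13, 0.0476), fell. In THP-1 MITF, an activator of BCL2 in melanocytes (1.96 ± 0.23, 1.09e-05), and NFKBIA, the NF-kB inhibitor (0.47 ± 0.14, 0.0499), rose. Other than TNFRSF10B and TNFRSF10D, each called gene named from these lists lost its call under 1 to 7 of the 8 alternatives, most often without the pair terms or without a pair of its own line.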

How the data were processed

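RNA was sequenced from 8 libraries of KASUMI-1 and THP-1 cells, 1 for each combination of line, agent and time. The authors deposited 1 table of whole-number read counts per gene, not normalized; per the file headers it was made with featureCounts 1.5.2 on Ensembl release 54 gene models of NCBI build 36. FastQC 0.10.0, TopHat2 2.0.10, Subread, edgeR and hg18 are named in the submitters' processing notes. The recorded counting command has no strand option and no option for reads that map to several places. A gene and its antisense partner therefore cannot be told apart, and genes with close copies may be undercounted.

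The main test was edgeR 4.0.16 (R 4.3.3), its quasi-likelihood F-test with TMM scaling and filterByExpr at a minimum count of 10. The design matrix had 4 pair columns and 1 LSD1i column per line (2 residual degrees of freedom, common dispersion 0.0115, median prior degrees of freedom 15.6). The pairs come from line and time in the labels, not from replicate numbers. The vehicle libraries were fitted apart (15456 genes, dispersion 0.0249). Benjamini-Hochberg adjustment ran over all genes tested, with calls at 0.05. Pair ratios used a prior count of 2 and exact binomial 95% intervals, which cover counting error only, since reads lacking molecular identifiers need not be separate molecules. Counted reads ranged from 23722972 to 45970766.

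Lists named beside the members were other BCL2 family genes, caspases and apoptosome, inhibitors of apoptosis, death receptors, stress response genes, known regulators of the members, and monocyte maturation. The members and lists were chosen with earlier results of these data known. From each list, up to 4 called genes with the largest absolute log2 value in a comparison were named. 1 gene of the stress response list is not reported here. BCL2L15, NAIP and FOXO1 were matched through older symbols. The alternatives were RLE size factors, no count filter, DESeq2 1.42.0, no pair terms, and each pair or vehicle library left out. The fitting code was tested on simulated data. Gene coordinates are those of the table (NCBI36), and promoter sequences are from RefSeq on GRCh38.p14.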

Additional observations from a re-analysis of the deposited data

Results flagged for a closer look

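Of the 102 members and list genes tested, 10 differed in their LSD1i response between KASUMI-1 and THP-1 by the contrast of the line coefficients in edgeR's quasi-likelihood test, at an adjusted p under 0.05 over all genes. Of all 16060 genes 914 did (5.69%). The values below are log2 differences, KASUMI-1 minus THP-1. Among the members, BCL2 was at 0.70 and BID at -0.86, both described above. BAK1, the other pore-forming effector, was at -0.87, with log2 ratios of -0.46 and -0.58 in the KASUMI-1 pairs and 0.37 and 0.32 in the THP-1 pairs. BIRC5 (survivin) was at -0.74, with -0.32 and -0.65 in KASUMI-1 and 0.21 and 0.31 in THP-1. The TRAIL receptor gene TNFRSF10A was at -1.0, with -0.07 and -0.38 in KASUMI-1 and 0.96 and 0.57 in THP-1.

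Among stress response genes, TP53INP1 was at 1.496, with 1.06 and 2.28 in the KASUMI-1 pairs and -0.54 and 0.73 in the THP-1 pairs. That difference was lost with DESeq2 (adjusted p = 0.28) and without the 72 h pair of KASUMI-1 or the 24 h pair of THP-1. In THP-1 libraries TP53INP1 was at 1.14 to 3.53 CPM. AEN, an exonuclease gene, was at -0.75. Of the regulators, MITF was at -2.22 and FOXO3 at 0.81, with 0.33 and 0.83 in KASUMI-1 and -0.04 and -0.42 in THP-1. ITGAM, an integrin gene of mature myeloid cells, was at -1.38 and was higher with LSD1i in all 4 pairs, at 1.01 and 1.81 in KASUMI-1 and 2.81 and 2.66 in THP-1. In KASUMI-1 libraries ITGAM was at 0.31 to 1.37 CPM and MITF at 0.27 to 1.08 CPM. Without the pair terms none of these 10 differences passed the test, and edgeR called 22 genes in all there. Each of the 10 also lost its call when 1 pair was left out, for at least 1 choice of pair. Such a fit leaves 1 pair in a line and so no measure of its spread.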

How the results depend on the processing

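Calls leaned on the pair terms. Without them (no replicate block) edgeR called 100 genes in KASUMI-1 in place of 1945, 454 in THP-1 in place of 1503 and 22 for the difference in place of 914. Of the 10 members it then called 0 in each of the 3 comparisons, in place of 3, 2 and 2, while 5, 3 and 3 had an unadjusted p under 0.05. DESeq2 with the pair terms called 3, 2 and 2. In KASUMI-1 its 3 were BAD, BCL2L1 and BID, with BID in place of BMF. DESeq2 called 980 genes in THP-1, and RLE size factors raised the members called in KASUMI-1 to 5. With 1 pair left out, between 306 and 2741 genes and 0 to 3 members were called in KASUMI-1, 386 to 2211 genes and 0 to 3 members in THP-1, and 166 to 1705 genes and 0 to 4 members for the difference. The lowest gene counts were those without a line's 72 h pair (KASUMI-1 for 306, THP-1 for 386 and 166). Where 0 members were called, 4 had an unadjusted p under 0.05 in KASUMI-1 (72 h pair of KASUMI-1 left out), 2 in THP-1 (72 h pair of THP-1 left out) and 4 or 5 for the difference (a THP-1 pair left out). With 1 vehicle library left out, 7157 to 8864 genes and 4 to 8 members were called between the lines, with 4 when the 24 h library of THP-1 was left out. A line left with 1 pair is assumed to vary like the other line.

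Signs turned only for member values that were not called. With 1 pair left out, the KASUMI-1 value lay between -0.57 and 0.13 for BCL2A1, -0.13 and 0.25 for BCL2L11, and -0.97 and 0.91 for BBC3. The THP-1 value lay between -0.031 and 0.047 for BCL2L1, -0.097 and 0.26 for MCL1, -0.32 and 0.17 for BMF, -0.012 and 0.25 for BAX, and -0.19 and 0.12 for BBC3. The difference lay between -0.13 and 0.23 for MCL1 and -0.97 and 0.92 for BBC3. With 1 vehicle library left out, BAX lay between -0.24 and 0.13 for KASUMI-1 over THP-1. Without the pair terms BBC3 was at 0.062 in KASUMI-1, 0.022 in THP-1 and 0.040 for the difference. The cause was not tested.

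Scaling by total counts in place of TMM moved the median of all genes by 0.11 in the KASUMI-1 6 h pair and -0.13 in the THP-1 72 h pair, and BAX in that THP-1 pair to -0.12. BCL2A1 and BBC3 were limited by depth, with 2 to 99 and 16 to 160 reads.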

Other observations

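The lines with vehicle also differed in genes around the members, beside calls for 56.5% of all genes. Of 100 members and list genes tested there, 63 were called, near that share. Values are on the log2 scale of KASUMI-1 over THP-1, from edgeR's quasi-likelihood test. Of 15 caspase and apoptosome genes 8 were higher in KASUMI-1 and 1 was lower, with a list median of 0.59 beside -0.0021 over all genes. CASP6 was higher by 2.30 ± 0.19 (SE, adjusted p = 3.13e-06), as were the genes of the nuclease DFFB (1.19 ± 0.18) and of its inhibitor DFFA (1.02 ± 0.18). APAF1 was lower (-1.73 ± 0.17, adjusted p = 1.34e-05). Of 11 death receptor genes 5 were higher and 3 lower, with FAS at -2.08 ± 0.37, TNFRSF10D at 1.85 ± 0.23, TNFRSF1A at 1.75 ± 0.19 and RIPK1 at 1.59 ± 0.17. Of the other BCL2 family genes 2 were higher and 5 lower, among them the guardian gene BCL2L2 (-1.23 ± 0.18, adjusted p = 0.000221) and the BH3-only gene BIK (-1.07 ± 0.22, 0.00210).

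Of 27 regulators of the members 7 were higher and 4 lower, with STAT5A at 4.27 ± 0.20, MYC at 1.82 ± 0.19, STAT5B at 1.60 ± 0.18 and MITF at -1.70 ± 0.44. Of 11 stress response genes 4 were higher and 5 lower. Of 6 inhibitor of apoptosis genes 2 were higher and 3 lower. Of 9 monocyte maturation genes tested 7 were lower, with a median of -3.41. LYZ, CD14 and CSF1R of this list are also listed as THP-1 markers. CD36 was at 0.29 and 0.13 CPM in KASUMI-1 with vehicle, against 53.6 and 37.9 CPM in THP-1. Genes of this kind pass the count filter through THP-1, where they are high. The direction and median of this list were thus partly set in advance.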
